A study of Mus musculus with 24 samples.

Results

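Of the 24015 gene symbols in the count table of this liver study, 42 encode collagens, other matrix proteins, matrix proteases with their inhibitors, lysyl oxidases, TGF-beta ligands and genes of activated hepatic stellate cells. They were chosen by symbol as a set for matrix turnover and fibrosis, and all 42 have a line in the table. The livers came from female B6C3F1 mice, a hybrid strain, that were 5 to 6 weeks old at purchase per the labels. Treated mice received furan at 8 mg per kg of body weight per day in corn oil by gavage for 21 days, and control mice received the corn oil alone. Tissue was taken 4 h after the last dose, and each liver was cut into a snap-frozen piece, a piece fixed in formalin for 18 h and a piece fixed for 3 weeks, the fixed pieces being embedded in paraffin (FFPE). Libraries were made from poly(A) RNA with an unstranded kit. The comparisons used 3 control and 3 furan animals for fresh-frozen pieces and 4 control and 4 furan animals for each FFPE time. Replicates are separate animals, and pieces with 1 animal number come from 1 liver.

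The liver matrix is made mostly by stellate cells and portal fibroblasts, with fibronectin, collagen XVIII and other soluble or basement membrane proteins also coming from hepatocytes and endothelium. In fibrosis, activated stellate cells raise fibrillar collagens, lysyl oxidases that cross-link them, and contractile genes, while macrophages and stellate cells release metalloproteinases that cut matrix. TIMP proteins block these enzymes, TGF-beta is the main profibrotic ligand, and furan is a liver toxicant that the hepatocyte enzyme CYP2E1 activates.

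Fresh-frozen libraries held 33101755 to 58048387 counts, FFPE 18 h libraries 16269854 to 22494012 and FFPE 3 week libraries 3666173 to 11780691. The 42 genes took 0.652 to 0.723% of the counts in fresh-frozen, 0.183 to 0.276% in FFPE 18 h and 0.310 to 0.370% in FFPE 3 week libraries. The ribosomal RNA gene Rn45s took 37.3% of the counts of 1 library, control 06 of FFPE 18 h. The 11 hepatocyte markers in the table summed to between 102000 and 172800 CPM (counts scaled to the size of the library) in every library, as in liver tissue. Levels below are CPM scaled within each comparison, given in the order of the animal numbers (fresh-frozen control 02, 04, 06 and furan 41, 43, 44, FFPE control 02, 03, 04, 06 and furan 41, 42, 43, 44). Fold changes are fitted log2 values of furan over control ± SE, and adjusted p is the Benjamini-Hochberg value of edgeR's quasi-likelihood test over all genes tested, with a threshold of 0.05. In bulk tissue, fewer cells of a type and less RNA per cell cannot be told apart.

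In fresh-frozen livers furan raised 4 of the 41 matrix genes tested and lowered 0. The 4 were the macrophage elastase Mmp12, the collagenase Mmp13, the laminin chain Lamc1 and the collagen Col15a1. With any 1 library left out, 1 or 2 matrix genes passed, Mmp12 each time, and with 1 model of all 6 groups 0 passed (0.982% of all genes). That share of 9.76% stands beside 15.7% of all 13794 genes called in either direction, 8.21% higher and 7.47% lower. In FFPE 18 h livers 1 of 39 tested matrix genes passed, Mmp12, beside 8.39% of all genes, 3.92% higher and 4.47% lower. In FFPE 3 week livers 0 of 39 passed the edgeR test, beside 0.821% of all genes; 4 had an unadjusted p under 0.05, and DESeq2 called 1, Col3a1. DESeq2 called 5 in fresh-frozen livers, adding Mmp14, and 2 in FFPE 18 h livers, adding Eln. These shares lie near the background and say nothing particular about the set. The shares with an unadjusted p under 0.05 were 22%, 23.1% and 10.3% of the matrix genes tested, against 32%, 23.4% and 10.9% of all genes.

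The tested matrix genes had a median log2 change of 0.076 in fresh-frozen livers, of 0.15 at FFPE 18 h and of 0.25 at FFPE 3 weeks, against -0.012, -0.013 and 0.018 over all genes tested. The last median is 0.25 also with Mmp13, which had no control counts there, set at a floor value. That swap could not move the median, because both values of Mmp13 lie far above it. Timp1 was not tested in fresh-frozen livers because its counts were too low, nor were Thbs1, Tgfb2 and Lox in FFPE 18 h or Lama2, Thbs1 and Timp1 in FFPE 3 week livers. Groups did not overlap for 9 of 41 matrix genes in fresh-frozen livers (7 higher and 2 lower with furan), where 37.4% of all genes had no overlap, 19% higher and 18.4% lower. The count was 2 of 39 in FFPE 18 h livers, both higher, against 15.7% of all genes (7.96% higher and 7.77% lower). It was 5 of 39 in FFPE 3 week livers, all higher, against 8.8% (4.55% higher and 4.25% lower).

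**Figure D1:**
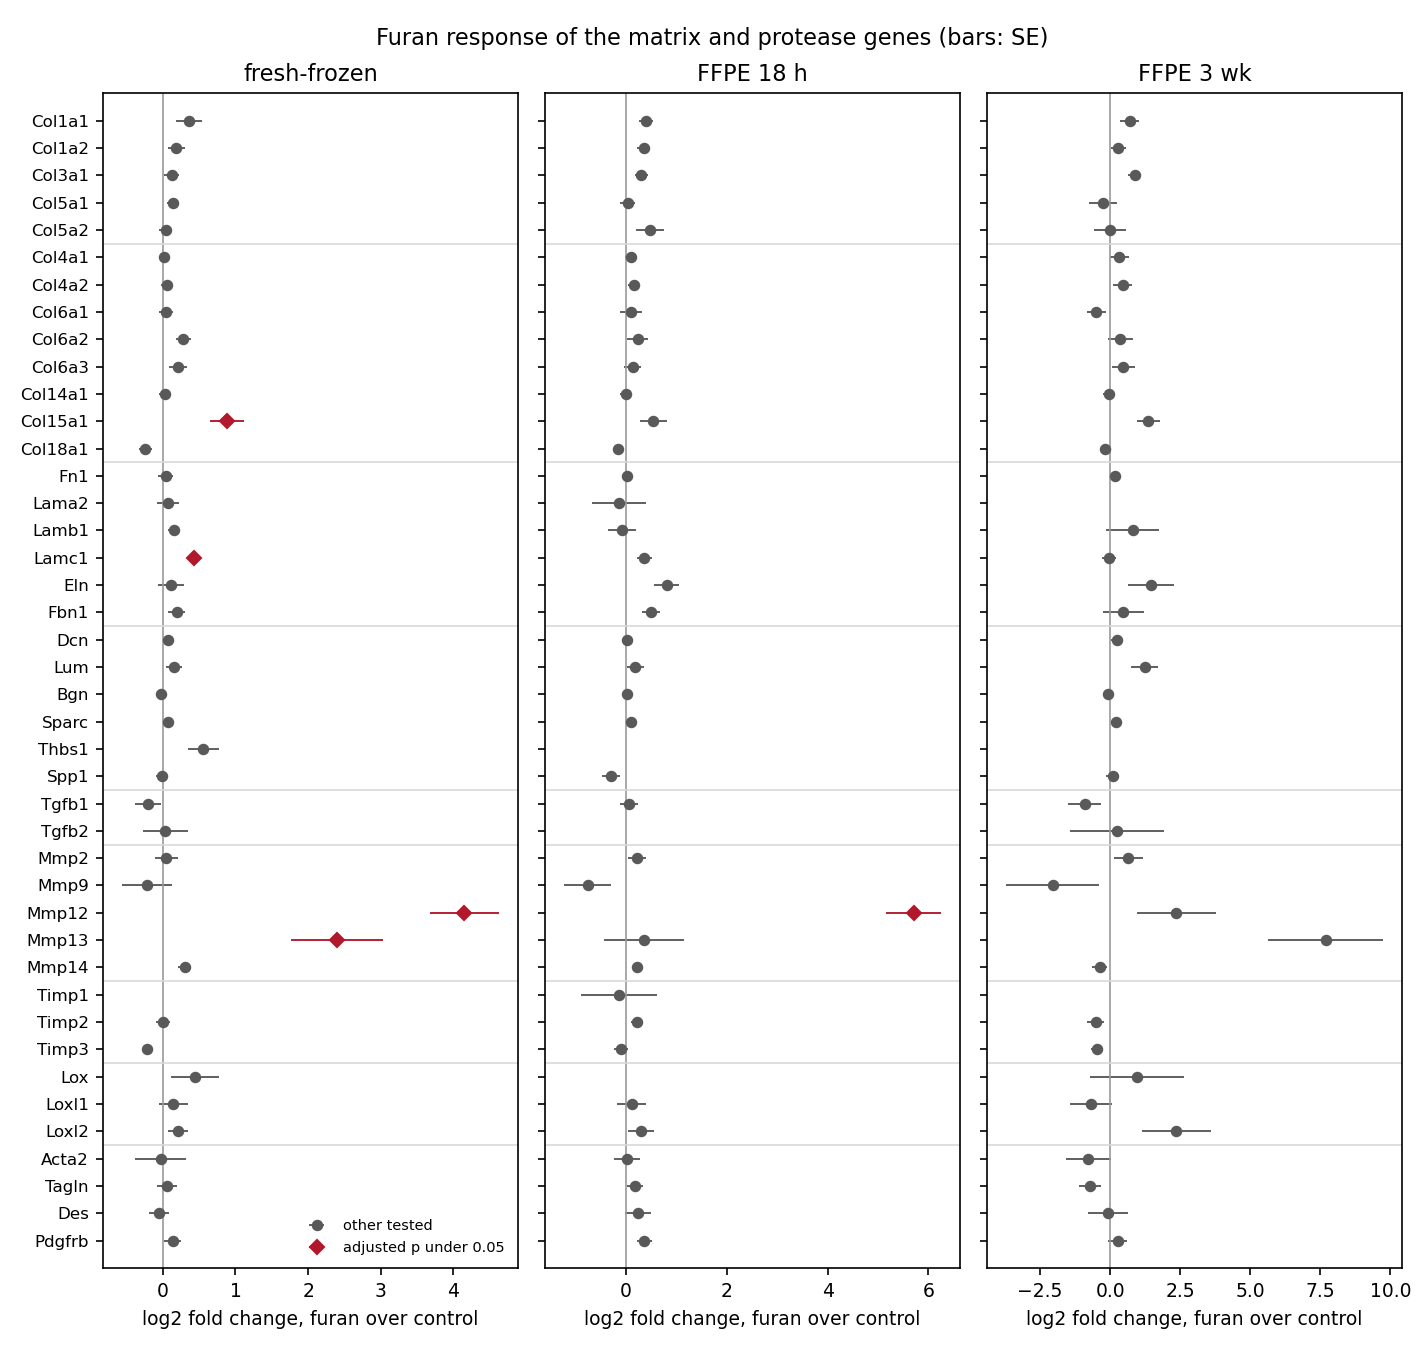
Log2 fold change of furan over control (x axis, separate scale for each kind of piece) for each tested matrix gene (rows, grouped by role), with bars of 1 SE; red diamonds have an adjusted p under 0.05. Mmp12, Mmp13, Lamc1 and Col15a1 are red in fresh-frozen and Mmp12 in FFPE 18 h livers, most other points lie near 0 in fresh-frozen livers, and the fitted value of Mmp13 in FFPE 3 week livers rests on controls without counts and is no estimate of size.

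The metalloproteinases held the largest change of the set. Mmp12 encodes macrophage elastase, which cuts elastin and is known as a macrophage product. In fresh-frozen livers Mmp12 was at 0.140, 0.423 and 0.335 CPM in the controls and at 3.22, 8.74 and 4.57 CPM in the furan animals. Every furan library lay above every control library, with animal 43 highest. The fitted change was 4.15 ± 0.48 (adjusted p = 0.00250), on 45 control and 714 furan counts, and it passed with each library left out (adjusted p 0.00452 to 0.0112). Mmp12 in FFPE 18 h livers was at 0, 0.0491, 0.110 and 0.0882 CPM in the controls and at 2.61, 2.57, 4.78 and 3.76 CPM with furan. The groups again did not overlap, and the controls held only 4 counts in all, so the fitted 5.71 ± 0.54 (adjusted p = 5.27e-05) is loosely bounded. Mmp12 in FFPE 3 week livers was at 0, 0, 5.16 and 0.103 CPM in the controls and at 9.41, 8.89, 6.82 and 2.87 CPM with furan. Control 04 lay inside the furan range there while the other controls were near 0. The change of 2.36 ± 1.41 did not pass (adjusted p = 0.615), and it was 6.93 without control 04 (adjusted p = 0.0863).

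The 12 macrophage and Kupffer cell markers stood apart in the same animal. Their summed level in control 04 was 834.5 CPM in the fresh-frozen, 1068 CPM in the FFPE 18 h and 1487 CPM in the FFPE 3 week piece. The other animals, control and furan, spanned 310.2 to 422.1, 484.3 to 618.1 and 619.5 to 874.8 CPM. Furan changed 0 of these 12 markers past the threshold in any kind of piece (edgeR; 0, 2 and 0 at an unadjusted p under 0.05). Over all genes 15.7%, 8.39% and 0.821% passed in the same order. Of 11 markers of monocyte-derived macrophages, of which 8, 9 and 7 were tested, 0 passed either (1, 0 and 0 at an unadjusted p under 0.05). Their sums were 30.5 to 47.0 CPM in control and 29.4 to 37.8 CPM in furan fresh-frozen livers, and 29.5 to 44.03 against 45.5 to 69.9 CPM in FFPE 3 week livers, where the groups did not overlap. The part of macrophage numbers in the Mmp12 values was not tested.

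**Figure D2:**
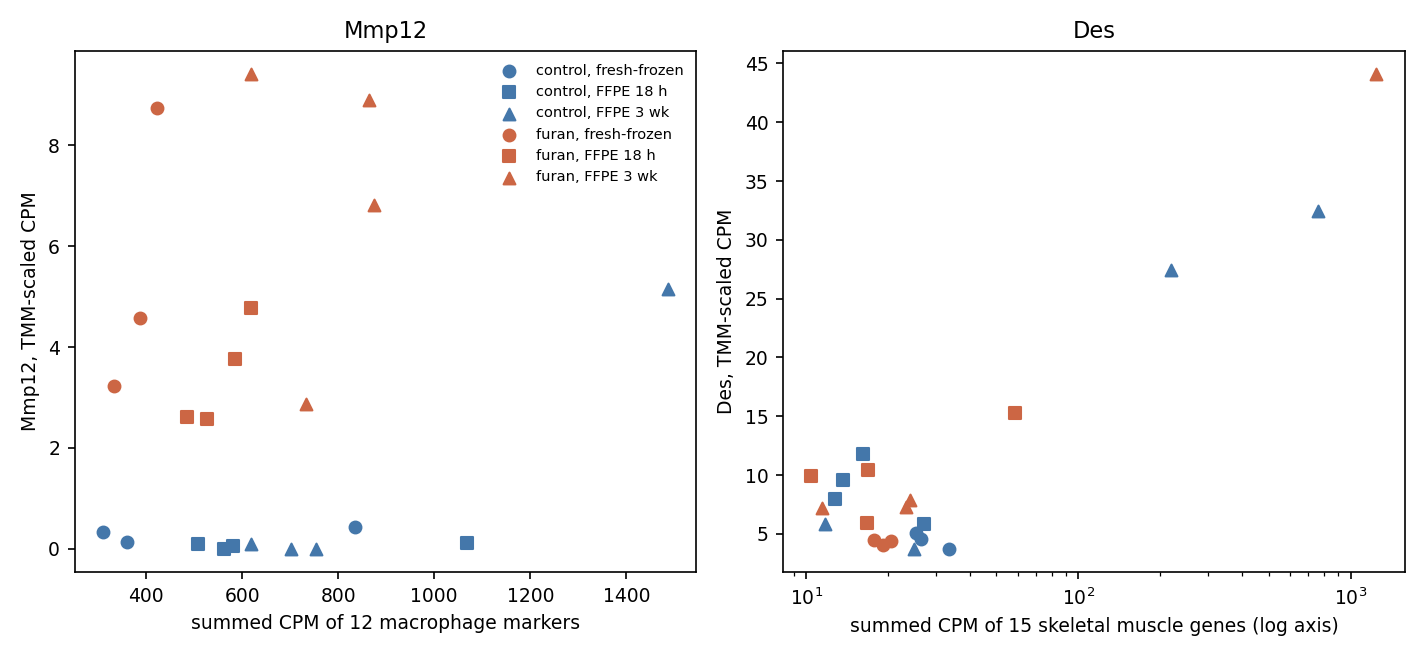
Left, Mmp12 against the summed CPM of 12 macrophage markers; right, Des against the summed CPM of 15 skeletal muscle genes on a log axis; each point is 1 library, coloured by treatment and shaped by kind of piece. The control with the highest macrophage sum in each kind of piece is animal 04. Its Mmp12 is at 0.423 CPM in the fresh-frozen, 0.110 CPM in the FFPE 18 h and 5.16 CPM in the FFPE 3 week piece. The 3 highest Des values belong to the 3 libraries with the highest muscle sums.

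Mmp13, the main rodent collagenase of fibrillar collagen, was a low transcript. In fresh-frozen livers it was at 0.117, 0.192 and 0.0394 CPM in the controls and 0.276, 1.04 and 0.608 CPM with furan, 17 counts against 81. The groups did not overlap, although furan animal 41 was close to the highest control. The change was 2.40 ± 0.63 (adjusted p = 0.0391). The call held without furan 41 and was lost without each of the other 5 libraries (adjusted p 0.0556 to 0.126). Mmp13 in FFPE 18 h livers was at 0.556, 0.0983, 0.716 and 0 CPM in the controls and 0.355, 0.0598, 0.729 and 0.652 CPM with furan, overlapping groups with a change of 0.36 ± 0.80 (adjusted p = 0.828). In FFPE 3 week livers all 4 controls held 0 counts, and the furan animals were at 2.96, 3.97, 2.78 and 2.78 CPM, 101 counts in all. The furan mean was 34.6-fold above a floor of 3 counts over the control group. That floor covers counting error and not the spread between animals, so it does not bound the change. The difference between the groups did not pass (adjusted p = 0.124). The difference in response from fresh-frozen livers did not pass at 18 h (-2.03 ± 1.15, unadjusted p = 0.0970) or at 3 weeks (unadjusted p = 0.00663, adjusted p = 0.811), on few reads in each.

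The promoter windows of both genes, 250 bases before to 50 after a RefSeq transcript start (GRCm38.p6, plus strand), are shown because these members rose together in the fresh-frozen livers. Capitals mark TGANTCA, the letters bound by AP-1 factors, and TATAAA, the TATA box letters. The windows lie at chr9:7347124-7347423 for Mmp12, where TGAGTCA begins 44 bases before the start and TATAAA lies just after it, and at chr9:7272264-7272563 for Mmp13, where TGACTCA begins 35 and TATAAA 16 bases before it.
Mmp12: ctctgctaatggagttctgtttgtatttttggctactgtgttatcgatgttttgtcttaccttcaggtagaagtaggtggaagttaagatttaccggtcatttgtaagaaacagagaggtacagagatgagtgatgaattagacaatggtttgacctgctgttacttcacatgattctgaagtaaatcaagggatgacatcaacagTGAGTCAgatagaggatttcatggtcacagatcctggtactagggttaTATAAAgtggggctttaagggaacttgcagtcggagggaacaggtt
Mmp13: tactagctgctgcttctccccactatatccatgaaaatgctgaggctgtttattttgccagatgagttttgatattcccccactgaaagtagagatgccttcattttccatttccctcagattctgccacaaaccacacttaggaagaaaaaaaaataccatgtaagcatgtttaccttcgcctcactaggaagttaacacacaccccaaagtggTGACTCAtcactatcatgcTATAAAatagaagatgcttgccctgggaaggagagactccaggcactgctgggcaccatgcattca
Searched on both strands, TGANTCA stood in 7.81% and TATAAA in 13.6% of 32851 such windows, and both in 1.54%. RefSeq windows were matched for 26 of the 42 genes, 30 windows in all. TGANTCA was in those of 3 genes (Mmp12, Mmp13 and Col6a1) and TATAAA in those of 5 (Col3a1, Mmp12, Mmp13, Spp1 and Tgfb2). These count genes with the letters in any of their windows, while the shares above are of windows. Lamc1 was among the genes without a matched window. A second Mmp12 window, at chr9:7344147-7344446, and the window of Col15a1 held neither. A match is a description of letters and not of a bound site.

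Mmp14, the membrane-bound protease that activates other metalloproteinases, was the most abundant of the 5 per transcript length. In fresh-frozen livers it was at 38.9, 40.8 and 34.4 CPM in the controls and 48.7, 42.9 and 49.2 CPM with furan. The groups did not overlap, but the change of 0.30 ± 0.088 missed the threshold (adjusted p = 0.0531; DESeq2 0.0357). Mmp14 in FFPE 18 h livers was at 62.7, 68.3, 72.5 and 68.1 CPM against 73.1, 87.3, 65.3 and 91.6 CPM, and furan animal 43 fell inside the control range (change 0.22 ± 0.11, adjusted p = 0.227). Mmp14 in FFPE 3 week livers was at 58.2, 78.6, 124 and 161 CPM against 80.8, 95.2, 84.6 and 65.3 CPM, and the controls spanned more than the furan animals. The gelatinases Mmp2 and Mmp9 had changes of 0.049 and -0.21 in fresh-frozen livers, at mean control levels of 3.60 and 1.12 CPM, and passed in none of the 3 comparisons.

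Among the inhibitors, Timp3, which binds to matrix, was the most abundant per transcript length. It was at 30.9, 32.5 and 34.01 CPM in the fresh-frozen controls and 29.01, 29.1 and 25.9 CPM with furan. The groups did not overlap, with furan lower, and the change was -0.21 ± 0.076 (adjusted p = 0.0970). Timp3 in FFPE 18 h livers was at 24.2, 18.1, 28.4 and 26.8 CPM in the controls and 23.8, 22.3, 24.2 and 20.3 CPM with furan (change -0.10 ± 0.13, adjusted p = 0.696). The furan range there lay inside the control range. Timp3 in FFPE 3 week livers was at 63.3, 44.4, 59.1 and 76.8 CPM against 50.7, 46.2, 36.4 and 43.1 CPM, overlapping groups with a change of -0.46 ± 0.22 (adjusted p = 0.461). Timp3 lies within the Syn3 gene, and 36.3% of its 50-base words occur in transcripts of other genes, most of all Syn3, so unstranded counts of the pair are uncertain. Timp2 was at 17.7 and 17.7 CPM in fresh-frozen control and furan livers. Timp1, which is induced in liver injury, held 9 control and 18 furan counts over the fresh-frozen libraries and was too low to test.

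**Figure D3:**
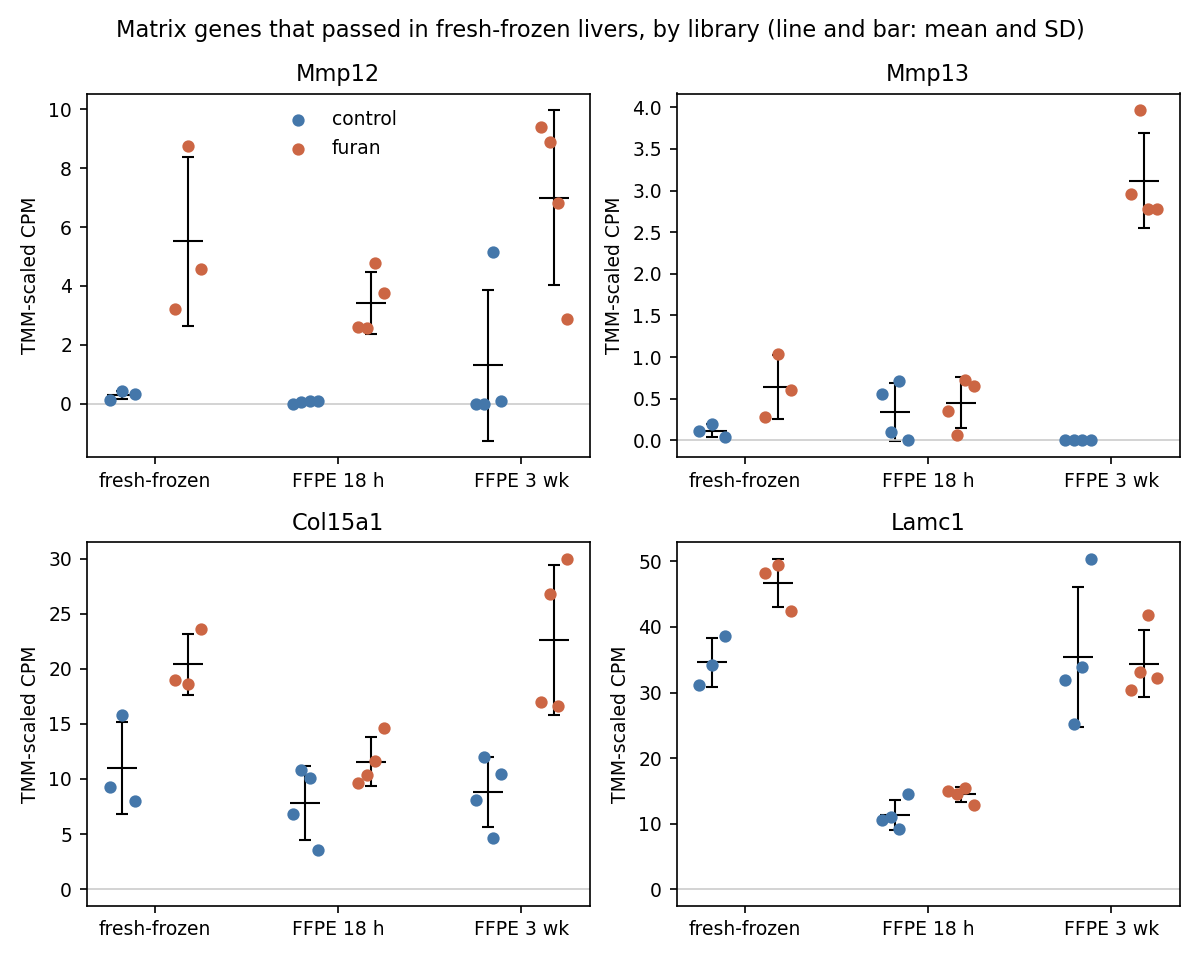
TMM-scaled CPM of the 4 genes that passed in fresh-frozen livers, with 1 point per library, control in blue and furan in orange, by kind of piece; the line and bar are the mean and SD of the 3 or 4 libraries. All 4 genes separate the groups in fresh-frozen livers, Mmp12 also in FFPE 18 h livers, and Lamc1 shows overlapping groups in both FFPE sets.

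The fibrillar collagens, whose rise is the usual hallmark of scar formation, had 0 of 5 members past the threshold in each kind of piece. Their median changes were 0.14, 0.35 and 0.30 in fresh-frozen, FFPE 18 h and FFPE 3 week livers, and 0, 3 and 1 of the 5 had an unadjusted p under 0.05. Col1a1, the main chain of collagen I, was at 11.8, 15.8 and 17.1 CPM in fresh-frozen controls and 17.6, 16.1 and 23.9 CPM with furan. These groups overlapped, and the change was 0.36 ± 0.18 (adjusted p = 0.201). Col1a1 in FFPE 18 h livers was at 12.01, 14.9, 16.1 and 16.8 CPM against 15.7, 21.6, 21.9 and 18.96 CPM, with a change of 0.39 ± 0.14 (adjusted p = 0.103). Col1a1 in FFPE 3 week livers was at 12.9, 36.4, 31.03 and 35.7 CPM against 28.3, 69.1, 39.6 and 52.6 CPM, with a change of 0.70 ± 0.34 (adjusted p = 0.477). Control 02 and furan 42 were the extremes of that set, and the groups overlapped in both FFPE sets.

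Col3a1, the chain of collagen III, was the most abundant fibrillar collagen per transcript length. It was at 43.2, 46.6 and 54.05 CPM in fresh-frozen controls and 47.02, 52.7 and 57.2 CPM with furan, overlapping groups with a change of 0.12 ± 0.10 (adjusted p = 0.454). Col3a1 in FFPE 18 h livers was at 36.1, 36.7, 45.5 and 29.6 CPM against 38.9, 48.5, 49.7 and 45.4 CPM, where control 04 reached the furan range (change 0.30 ± 0.12, adjusted p = 0.165). Col3a1 in FFPE 3 week livers was at 31.7, 38.7, 27.3 and 32.5 CPM against 39.1, 58.6, 68.7 and 72.6 CPM. The groups did not overlap, though furan 41 sat just above control 03. The change of 0.87 ± 0.24 had an adjusted p of 0.113 with edgeR and of 0.0304 with DESeq2. The partner chain Col1a2 differed by 0.19 ± 0.12 in fresh-frozen, 0.35 ± 0.13 in FFPE 18 h (adjusted p = 0.107) and 0.30 ± 0.26 in FFPE 3 week livers. The minor fibril chains Col5a1 and Col5a2 differed by 0.14 and 0.039, by 0.032 and 0.48, and by -0.25 and -0.017 in the same order of pieces.

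Among 8 basement membrane and other collagens, Col15a1 passed in fresh-frozen livers. Collagen XV anchors basement membranes to the tissue around them and carries an endostatin-like fragment, as does collagen XVIII. Col15a1 was at 9.23, 15.8 and 7.995 CPM in fresh-frozen controls and 19.01, 18.6 and 23.6 CPM with furan. The groups did not overlap, and control 04 was the highest control. Means were 11.0 ± 4.19 and 20.4 ± 2.77 CPM (SD, n = 3), and the change was 0.88 ± 0.24 (adjusted p = 0.0399). The call held without control 04 and was lost without each of the other 5 libraries (adjusted p 0.0717 to 0.123). Col15a1 in FFPE 18 h livers was at 6.84, 10.8, 10.1 and 3.53 CPM against 9.65, 10.3, 11.6 and 14.6 CPM, overlapping groups with a change of 0.54 ± 0.26 (adjusted p = 0.239). Col15a1 in FFPE 3 week livers was at 8.05, 11.99, 4.68 and 10.4 CPM against 17.02, 26.8, 16.7 and 30.0 CPM. All 4 furan libraries lay above all 4 controls there, with a change of 1.36 ± 0.42 that did not pass (adjusted p = 0.165).

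Col18a1, the collagen XVIII chain that hepatocytes make in quantity, was lower with furan in each fresh-frozen library. It was at 1913, 1788 and 1665 CPM in fresh-frozen controls and 1630, 1486 and 1430 CPM with furan. Every furan library was below every control, and the change of -0.24 ± 0.095 did not pass (adjusted p = 0.124). Col18a1 in FFPE 18 h livers was at 917, 873, 811 and 873 CPM against 834, 798, 770.3 and 687 CPM (change -0.17 ± 0.078, adjusted p = 0.210). Col18a1 in FFPE 3 week livers was at 803, 790.0, 706 and 659 CPM against 682, 644, 625 and 636 CPM (change -0.19 ± 0.11, adjusted p = 0.579). Furan 41, the highest furan library, lay above the lowest control in both FFPE sets. The basement membrane chains Col4a1 and Col4a2 differed by 0.021 and 0.054 in fresh-frozen livers, the microfibril chains Col6a1, Col6a2 and Col6a3 by 0.040, 0.28 and 0.21, and Col14a1 by 0.026. Of these, Col6a2 had separate groups in fresh-frozen livers (mean 6.05 against 7.36 CPM, adjusted p = 0.101).

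Lamc1, the gamma chain shared by most laminins, passed among the 6 glycoprotein and elastic fibre genes. It was at 31.2, 34.1 and 38.6 CPM in fresh-frozen controls and 48.3, 49.4 and 42.5 CPM with furan. The groups did not overlap, means were 34.6 ± 3.74 and 46.7 ± 3.72 CPM (SD, n = 3), and the change was 0.43 ± 0.097 (adjusted p = 0.0229). The call held without control 06 or furan 44 and was lost without control 02, control 04, furan 41 or furan 43 (adjusted p 0.0623 to 0.0822). Lamc1 in FFPE 18 h livers was at 10.5, 10.9, 9.25 and 14.6 CPM against 14.98, 14.5, 15.5 and 12.8 CPM (change 0.36 ± 0.14, adjusted p = 0.148). Control 06, the library with the large Rn45s share, was the control inside the furan range there. Lamc1 in FFPE 3 week livers was at 31.9, 25.2, 33.9 and 50.4 CPM against 30.4, 33.1, 41.9 and 32.2 CPM (change -0.044 ± 0.26, adjusted p = 0.990). Its partner chains Lamb1 and Lama2 differed by 0.16 and 0.070 in fresh-frozen livers, neither past the threshold.

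Fn1, fibronectin, was the most abundant matrix transcript per length. In fresh-frozen livers it was at 4226, 3905 and 4245 CPM in the controls and 4683, 4072 and 3975 CPM with furan, overlapping groups with a change of 0.041 ± 0.10 (adjusted p = 0.819). Fn1 in FFPE 18 h livers was at 896, 857, 797 and 1069 CPM against 949, 984, 854 and 865 CPM (change 0.013 ± 0.094, adjusted p = 0.950). Fn1 in FFPE 3 week livers was at 1221, 1333, 1066 and 1268 CPM against 1336, 1574, 1220 and 1414 CPM (change 0.18 ± 0.11, adjusted p = 0.619). The groups overlapped in both FFPE sets as well. Set against transcript length in fresh-frozen controls, Fn1 stood at 496 CPM per kilobase, followed by Col18a1 at 320, Dcn at 73.2, Bgn at 46.5, Sparc at 33.1 and Spp1 at 22.7 CPM per kilobase. At the bottom were Timp1 at 0.0674, Lox at 0.0525 and Mmp13 at 0.0434 CPM per kilobase.

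Eln, elastin, is a substrate of macrophage elastase. In fresh-frozen livers it was at 3.20, 3.02 and 2.52 CPM in the controls and 3.76, 2.60 and 3.04 CPM with furan, which overlap (change 0.11 ± 0.17, adjusted p = 0.689). Eln in FFPE 18 h livers was at 5.62, 2.90, 5.89 and 3.79 CPM against 8.53, 10.8, 5.67 and 7.02 CPM. Furan 43 lay inside the control range, and the change of 0.80 ± 0.26 missed the threshold (adjusted p = 0.0755; DESeq2 0.026). Eln in FFPE 3 week livers was at 1.61, 8.59, 10.98 and 0.207 CPM against 11.5, 23.8, 12.9 and 11.8 CPM, separate groups with controls spread from near 0 to just under furan 41 (change 1.47 ± 0.81, adjusted p = 0.576). Fbn1, the fibrillin of elastic microfibrils, differed by 0.19, 0.50 and 0.47 in the 3 kinds of piece. Its groups were separate in FFPE 18 h livers, and 20.1% of its 50-base words are shared with transcripts of other genes, most of all Gm9913.

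The small proteoglycans and matricellular genes had 0 of 6 past the threshold in fresh-frozen and 0 of 5 in each FFPE set (1, 0 and 1 at an unadjusted p under 0.05). Dcn, decorin, which coats collagen fibrils and binds TGF-beta, was at 131, 128 and 127 CPM in fresh-frozen controls and 129.5, 141 and 136 CPM with furan (change 0.074 ± 0.063, adjusted p = 0.466). Dcn in FFPE 18 h livers was at 59.04, 65.4, 69.4 and 55.4 CPM against 70.5, 58.1, 63.6 and 62.1 CPM (change 0.027 ± 0.094, adjusted p = 0.897). Dcn in FFPE 3 week livers was at 57.4, 50.8, 57.96 and 82.8 CPM against 90.5, 61.2, 77.5 and 68.3 CPM (change 0.26 ± 0.21, adjusted p = 0.763). Its groups overlapped in each kind of piece. The proteoglycan Bgn and the collagen-binding Sparc differed by -0.019 and 0.076 in fresh-frozen livers, and osteopontin, Spp1, by -0.0072. Thbs1, thrombospondin, an activator of latent TGF-beta, had separate fresh-frozen groups, at 1.19, 1.46 and 1.28 CPM against 1.59, 1.73 and 2.55 CPM (change 0.56 ± 0.22, adjusted p = 0.120). In FFPE 3 week livers Thbs1 held 2 control and 40 furan counts and was not tested. The proteoglycan Lum differed by 1.24 ± 0.49 in FFPE 3 week livers (adjusted p = 0.332) and by 0.15 and 0.19 in the others.

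Of the ligands, Tgfb1 was at 6.47, 9.80 and 6.66 CPM in fresh-frozen controls and 6.22, 7.51 and 6.19 CPM with furan, with control 04 the highest library. The groups overlapped, and the change was -0.20 ± 0.17 (adjusted p = 0.462). Tgfb1 in FFPE 18 h livers was at 8.01, 6.43, 7.21 and 5.47 CPM against 8.59, 6.46, 6.97 and 6.32 CPM (change 0.055 ± 0.17, adjusted p = 0.886). Tgfb1 in FFPE 3 week livers was at 6.44, 18.2, 4.58 and 24.3 CPM against 9.62, 4.38, 7.07 and 7.42 CPM, where controls 03 and 06 stood above all other libraries (change -0.91 ± 0.60, adjusted p = 0.670). Tgfb2 held 85 control and 78 furan counts in fresh-frozen livers.

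The lysyl oxidases, which cross-link collagen and elastin, had 0 past the threshold in each of the 3 comparisons, and 0 at an unadjusted p under 0.05. Their median changes were 0.21, 0.21 and 0.96. Loxl2, the most abundant of the 3 per transcript length, was at 5.96, 6.20 and 4.96 CPM in fresh-frozen controls and 6.17, 5.94 and 7.78 CPM with furan (change 0.21 ± 0.14, adjusted p = 0.343). Loxl2 in FFPE 18 h livers was at 2.22, 2.90, 2.26 and 1.94 CPM against 2.37, 2.93, 2.71 and 3.56 CPM (change 0.30 ± 0.26, adjusted p = 0.524). Loxl2 in FFPE 3 week livers was at 6.44, 0, 2.29 and 0 CPM against 8.67, 13.6, 7.32 and 13.5 CPM, separate groups with 2 controls at 0 (change 2.37 ± 1.22, adjusted p = 0.524). The other sets overlapped. Of the 50-base words of Loxl2, 45.8% are shared with transcripts of other genes, most of all Gm21451, which makes its counts uncertain. Lox and Loxl1 differed by 0.44 and 0.15 in fresh-frozen livers, Lox on 37 control and 47 furan counts.

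The genes of stellate activation had 0 of 4 past the threshold in each kind of piece (0, 1 and 0 at an unadjusted p under 0.05). Pdgfrb, the PDGF receptor of stellate cells, was at 13.03, 14.5 and 15.5 CPM in fresh-frozen controls and 18.1, 15.6 and 13.7 CPM with furan, overlapping groups with a change of 0.14 ± 0.12 (adjusted p = 0.456). Pdgfrb in FFPE 18 h livers was at 9.56, 10.4, 10.7 and 7.94 CPM against 13.9, 12.6, 13.6 and 9.83 CPM (change 0.36 ± 0.15, adjusted p = 0.158). Pdgfrb in FFPE 3 week livers was at 19.9, 11.6, 15.5 and 21.4 CPM against 14.6, 22.4, 23.7 and 21.7 CPM (change 0.27 ± 0.34, adjusted p = 0.894). Furan 44 in the 18 h set and furan 41 in the 3 week set lay inside the control range. Acta2, the smooth muscle actin that marks activated stellate cells, was at 1.26, 0.576 and 1.26 CPM in fresh-frozen controls and 0.724, 0.995 and 1.36 CPM with furan, a change of -0.029 ± 0.35 (adjusted p = 0.965). Tagln, an actin-binding protein of contractile cells, differed by 0.061, and the filament gene Des by -0.053.

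Des is also a muscle gene, and in FFPE 3 week libraries it was high where skeletal muscle genes were high. Des was at 3.76, 32.5, 5.83 and 27.4 CPM in the controls and 7.19, 44.1, 7.32 and 7.92 CPM in the furan animals there. The summed level of 15 skeletal muscle genes was 762.1 CPM in control 03, 218.8 CPM in control 06 and 1245 CPM in furan 42, the same 3 libraries that were high in Des. The other 5 libraries had sums of 11.4 to 24.95 CPM. Some other matrix genes were also highest in these libraries among FFPE 3 week pieces, such as Col1a1 and Eln in furan 42 and Tgfb1 in control 06. Tgfb1 was lowest in furan 42, at 4.38 CPM. Others, such as Col3a1, were not: it was highest in furan 44 (72.6 CPM), although control 03 was its highest control (38.7 CPM). The part of muscle RNA in the values of Des and these genes was not tested. Of the vascular smooth muscle markers 1 of 5 tested in fresh-frozen and 1 of 8 in FFPE 18 h livers passed, in both Mylk, a myosin kinase, which fell from 154 to 101 CPM (-0.61 ± 0.079) and from 90.7 to 47.8 CPM (-0.92 ± 0.10). Those shares of 20% and 12.5% stand beside 7.47% and 4.47% of all genes called lower. The median change of the tested smooth muscle markers was -0.51 in fresh-frozen and 0.037 in FFPE 18 h livers.

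Quiescent stellate cell markers fell in 2 of 12 cases in fresh-frozen livers, Vipr1 (-0.26 ± 0.061) and Colec10 (-0.23 ± 0.063), and rose in 0. That is 16.7% beside 7.47% of all genes called lower. In FFPE 18 h and 3 week livers 0 of 11 passed (edgeR, 2 and 0 at an unadjusted p under 0.05). The summed level of the stellate markers was 494.9 to 510.7 CPM in control and 486.1 to 492.9 CPM in furan fresh-frozen libraries. Of 12 sinusoidal endothelial markers 8 fell in fresh-frozen livers, 66.7% beside the same 7.47%, such as the scavenger receptor Stab2 (-0.57 ± 0.10). Their sum was 635.8 to 663.3 CPM in control and 453.5 to 539.0 CPM in furan livers. In FFPE 18 h livers 4 of these 12 fell, 33.3% beside 4.47% of all genes called lower. In FFPE 3 week livers 0 fell, beside 0.522% (edgeR, 2 at an unadjusted p under 0.05), with sums there of 856.7 to 1048 against 878.5 to 939.6 CPM. The part of these cell types in the matrix values was not tested.

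Other genes of matrix biology were counted in 6 lists. In fresh-frozen livers 3 of 23 other collagens and basement membrane genes rose and 0 fell, 13% beside the 8.21% of all genes called higher. Nid1, nidogen, which links laminin to collagen IV, went from 29.8 to 57.8 CPM (0.95 ± 0.14), Col5a3 from 25.4 to 58.1 CPM (1.19 ± 0.21) and the anchoring fibril collagen Col7a1 from 0.772 to 2.49 CPM (1.67 ± 0.27). Among 35 further proteases and inhibitors 3 rose and 0 fell, 8.57% beside the same 8.21%. They included the aggrecan-cutting Adamts1, from 13.1 to 39.3 CPM (1.59 ± 0.14), and Reck, a membrane inhibitor of metalloproteinases, by 0.41 ± 0.085.

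Of 28 TGF-beta and PDGF signalling genes 6 rose (21.4%) and 2 fell (7.14%) in fresh-frozen livers, beside 8.21% and 7.47% of all genes. Those that rose included the activin antagonist Fst (2.19 ± 0.25), the SMAD repressor Skil (0.99 ± 0.14), the ligand Pdgfa (1.10 ± 0.21) and the signal transducer Smad3 (0.41 ± 0.084). Those that fell were the ligand Bmp2 (-0.44 ± 0.10) and the coreceptor Tgfbr3 (-0.42 ± 0.092), named after their values were seen. Of 29 matricellular and microfibril genes 2 rose, Vcan and Smoc2, of 22 collagen folding and processing genes 1 rose, the prolyl hydroxylase P4ha1 (0.53 ± 0.090), and of 24 matrix receptors 1 rose, the collagen receptor Ddr1, and 1 fell, Sdc2. These 3 lists had 6.9%, 4.55% and 8.33% of their tested genes called, beside 15.7% of all genes. Median changes of the 6 lists lay between -0.096 and 0.20 in fresh-frozen livers.

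In FFPE 18 h livers the genes that passed in the lists included Col5a3 (0.89 ± 0.14), Col7a1 (1.88 ± 0.31), Adamts1 (1.07 ± 0.23), Fst (1.94 ± 0.27), Skil (0.66 ± 0.18) and the SMAD corepressor Tgif1 (0.66 ± 0.12) as higher and the basement membrane proteoglycan Agrn (-0.47 ± 0.094) as lower. Those lists had 14.3% (other collagens), 7.14% (proteases) and 11.1% (signalling) of their tested genes called, beside 8.39% of all genes. No gene passed in the folding, matricellular and receptor lists there (edgeR; 6, 3 and 3 had an unadjusted p under 0.05). Adamts1 alone of the 6 lists passed in FFPE 3 week livers, at 1.92 ± 0.41 (adjusted p = 0.0406).

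Calls among the 42 genes also rested on the fit. With 1 model of all 6 groups, which shares 1 estimate of the spread, Mmp12 in fresh-frozen livers was at 4.16 (adjusted p = 0.103). In FFPE 18 h livers the same model called 1 matrix gene, Mmp12, beside 1.6% of all genes. In FFPE 3 week livers it called 8 matrix genes (Col3a1, Col15a1, Lama2, Lum, Thbs1, Mmp13 and Loxl2 higher, Timp3 lower), beside 14.4% of all genes. Fitted alone, the FFPE 3 week libraries had a common dispersion (spread) of 0.336, against 0.015 in fresh-frozen and 0.0284 in FFPE 18 h livers. A shared estimate can be too small for the FFPE 3 week libraries, so these 8 calls add no support. Fitted on its own groups without control 06, the FFPE 18 h comparison called 3 matrix genes, Mmp12 and Lamc1 higher and Spp1 lower.

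More matrix genes passed between kinds of piece than between treatments. Between FFPE 18 h and fresh-frozen pieces of control livers, 10 of 37 tested matrix genes were higher and 11 lower, 56.8% beside 68% of all genes called (34.2% higher and 33.8% lower). Between FFPE 3 week and fresh-frozen pieces, 9 of 37 were higher and 6 lower, 40.5% beside 26.2% of all genes (13.2% higher and 13% lower). Groups did not overlap for 24 of the 37 at 18 h, where the share was 67.4% over all genes (33.3% higher and 34.1% lower), and for 19 at 3 weeks, where it was 43.6% (18.4% higher and 25.2% lower). Both comparisons use the same fresh-frozen control libraries. Frozen and fixed tissue were also extracted with different kits, and the 18 h and 3 week blocks gave different numbers of sections, so these cannot be told apart from fixation. Per the labels, frozen RNA had integrity numbers over 8.9 and FFPE RNA of 1.3 to 2.4.

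Fibronectin was lower in both kinds of fixed piece. Pairs of values here are given for 18 h first and 3 weeks second. On the scale of each of these comparisons, mean Fn1 went from 3554 to 947 CPM in FFPE 18 h pieces (-1.91 ± 0.11, adjusted p = 2.82e-07) and from 4152 to 1182 CPM in FFPE 3 week pieces (-1.81 ± 0.094, adjusted p = 6.13e-06). Col18a1 was lower, with changes of -0.76 ± 0.081 and -1.33 ± 0.099, and Col14a1, a collagen that binds fibril surfaces, had changes of -1.21 ± 0.12 and -0.80 ± 0.16. Lamc1 was lower at 18 h (-1.34 ± 0.15) and not different past the threshold at 3 weeks (-0.024 ± 0.26). Dcn was lower too, with changes of -0.76 ± 0.091 and -1.10 ± 0.18.

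In the other direction, contractile genes were higher in fixed pieces. Acta2 went from 0.892 to 18.5 CPM in FFPE 18 h pieces (4.39 ± 0.41, adjusted p = 8.59e-06) and Tagln from 3.42 to 18.3 CPM (2.43 ± 0.19). In FFPE 3 week pieces Tagln differed by 2.58 ± 0.41 and Acta2 by 3.72 ± 1.11, with Acta2 groups that overlapped and a call that ended with the animal as a block. Markers of other contractile and fibroblast cells were also higher in FFPE 18 h pieces, as were those of some other cell types. Of 8 vascular smooth muscle markers tested 5 were higher and 2 lower (median 2.19), with Pln at 5.35 ± 0.50, Cnn1 at 5.33 ± 0.59 and Actg2 at 4.91 ± 0.60. Of 8 portal fibroblast markers 6 were higher and 0 lower (median 1.78). Higher were 62.5% and 75% of these lists, beside 34.2% of all genes, and lower 25% and 0%, beside 33.8%. Of the other lists, higher and lower were 66.7% and 0% of 3 neutrophil and 50% and 12.5% of 8 monocyte-derived macrophage markers. For 12 Kupffer cell, 8 biliary and 2 skeletal muscle markers they were 41.7% and 0%, 37.5% and 0%, and 50% and 0%. For 12 endothelial, 11 hepatocyte and 4 mesothelial markers they were 33.3% and 33.3%, 36.4% and 45.5%, and 0% and 25%. Of 11 quiescent stellate markers 9.09% were higher and 54.5% lower (median -0.76). At 3 weeks 0 of 4 smooth muscle markers passed (edgeR; 3 at an unadjusted p under 0.05; median 1.54) and 1 of 7 portal fibroblast markers was higher (median 1.77). Those shares of 0% and 14.3% stand beside 13.2% of all genes called higher. The part of these cell types in the Acta2 and Tagln values was not tested. Tagln shares 48.3% of its 50-base words with transcripts of other genes, most of all Gm48529, so its level is uncertain. Mmp14 was higher by 1.12 ± 0.092 and 1.42 ± 0.33, Sparc by 0.79 ± 0.097 and 1.43 ± 0.14, and Bgn by 0.59 ± 0.078 and 1.23 ± 0.18. Col6a1 was higher at 3 weeks (2.08 ± 0.43) and missed the threshold at 18 h (0.52 ± 0.25). Timp2 and Timp3 were higher at 3 weeks (1.26 ± 0.38 and 0.85 ± 0.21) and not past the threshold at 18 h. Loxl1 was higher in both (1.78 ± 0.34 and 3.06 ± 0.93), with the call at 3 weeks lost in the block, and Loxl2 was lower at 18 h (-0.996 ± 0.20). Among FFPE 3 week controls, 06 was highest for Acta2, Tagln, Mmp14, Col6a1, Loxl1, Timp2 and Timp3, and 04 for Sparc and Bgn. Control 06 had a muscle gene sum of 218.8 CPM. Control 03 had the highest sum among these controls (762.1 CPM). The part of muscle RNA in these values was not tested.

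At 18 h the laminin chains Lamb1 (-1.30 ± 0.26) and Lama2 (-1.48 ± 0.42) were lower, as Lamc1 was. At 3 weeks Lamb1 did not pass (-1.79 ± 0.89, adjusted p = 0.182), and Lama2 fell from 492 counts in the fresh-frozen controls to 1 count, a call also lost in the block. The collagen IV chains Col4a1 and Col4a2 were lower at 18 h (-0.44 ± 0.12 and -0.45 ± 0.088), Col5a1 likewise (-0.47 ± 0.13), and Col1a2 was higher (0.64 ± 0.14). Col3a1 was lower at 3 weeks (-0.62 ± 0.19) with a call that ended with the animal as a block. Mmp12 and Mmp13, Tgfb2, Lox and Timp1 were not tested in either comparison because of low counts.

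Direction went with transcript length. In the 18 h comparison the 10 higher members had a median transcript length of 3053 nt (1595 to 5348) and the 11 lower members of 6457 nt (1758 to 9614), Dcn being the short exception. Across the 37 members Spearman's rho of log2 change and length was -0.67, and across 12013 genes -0.584. At 3 weeks it was -0.567 over 37 members and -0.422 over 11307 genes. Genes are not independent replicates, all points share the same libraries, and rho is given as a description.

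**Figure D4:**
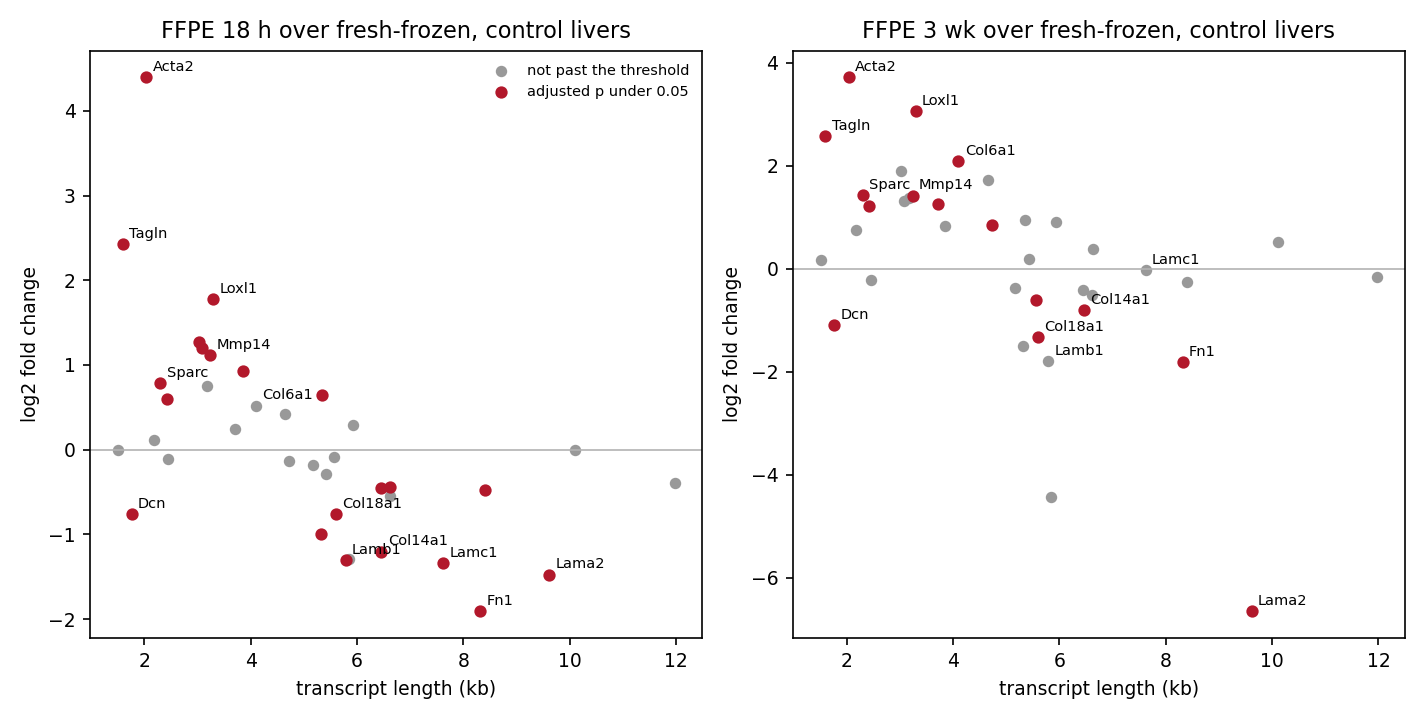
Log2 change of FFPE over fresh-frozen pieces in control livers (y axis) against transcript length in kilobases (x axis) for the 37 tested matrix genes, red where the adjusted p is under 0.05. Short genes such as Tagln and Acta2 lie above 0, long genes such as Fn1 and Lama2 below it, and Dcn is low despite its short transcript.

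Whether the furan response itself differed between kinds of piece was tested as an interaction. None of 42 members passed for FFPE 18 h against fresh-frozen (edgeR; 0 at an unadjusted p under 0.05; DESeq2 0), where 0% of all genes were called. None of 41 passed for FFPE 3 week pieces (edgeR; 3 at an unadjusted p under 0.05, Lama2, Mmp13 and Col3a1; DESeq2 1, Lama2), again beside 0% of all genes. Lama2, a laminin chain of muscle and nerve basement membranes, was at 0, 0.106, 0 and 0 CPM in FFPE 3 week controls and 0.951, 3.56, 1.26 and 3.29 CPM with furan. That is 1 count against 79, while in fresh-frozen pieces the controls held 492 counts and the furan livers 468. For Mmp12 the difference between responses was 1.64 ± 0.92 at 18 h and -1.81 ± 1.68 at 3 weeks (unadjusted p = 0.0929 and 0.295), and for Lamc1 it was -0.055 ± 0.18 and -0.46 ± 0.30 (0.769 and 0.149). The common dispersion, a measure of spread between the libraries of a group, was 0.336 in FFPE 3 week livers. It was 0.015 in fresh-frozen and 0.0284 in FFPE 18 h livers. Both FFPE sets came from the same animals, so it also holds differences between pieces and libraries. A missed threshold in FFPE 3 week livers therefore says little about absence.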

How the data were processed

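The authors deposited a table of raw read counts per gene for 24 columns. Per the submitters' processing notes, CASAVA 1.8.2, STAR 2.3.0 and featureCounts 1.4.4 were used with the mouse build mm9. Libraries were unstranded poly(A) libraries run on a HiSeq 2000, per the labels' protocols. Columns were matched to samples by animal number and kind of piece. Of the 24 columns, 22 were used and 2 were not, because their names match no labelled sample, and 2 labelled fresh-frozen samples have no matched column and were not analysed here.

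Counts were filtered with filterByExpr and scaled by the TMM method, and each comparison was fitted on its own groups with edgeR 4.0.16 (R 4.3.3, quasi-likelihood test, 2-sided), with Benjamini-Hochberg adjustment over all genes tested at 0.05. Standard errors are the log2 change divided by the square root of F. Alternatives were RLE scaling, DESeq2 1.42.0, no filter, 1 model of all 6 groups, leaving out each library, only animals with a fresh-frozen library, the animal as a block and, added after the depths were seen, dropping the 2 shallowest FFPE 3 week libraries. The fits were tested on simulated data. 1 gene of the lists is not reported here. The members and lists were chosen with earlier results of these data known. Values in each library are given for members that passed in a furan comparison, the 3 with the smallest p in each, and the member of each role group with the highest mean CPM in fresh-frozen controls. A few others (Acta2, Thbs1, Des and Lama2) were added after their values were seen.

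Pairing comes from the labels, since pieces with 1 animal number are from 1 liver. Deviations from the group means correlated within animals at r = 0.373 to 0.501 between fresh-frozen and FFPE 18 h and 0.1 to 0.244 between fresh-frozen and FFPE 3 week pieces (6 animals each). Transcript lengths, from GENCODE's GRCm38 annotation, are those of the longest protein-coding transcript of a symbol, and shared words are its 50-base stretches found in transcripts of other genes. The counts were made on mm9, and the effect of shared words on them was not tested. Counting error is small for abundant genes, and with few reads the number of counts is given beside the value.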

Additional observations from a re-analysis of the deposited data

Results flagged for a closer look

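In 60 checks of the printed genes over groups of 4 libraries, 3 held a library far from its fellows; chance flags about 1 in 20 groups. Mmp12 in control 04 of the FFPE 3 week set stood at 5.156 CPM, while the other controls lay between 0 and 0.1034 CPM. Mmp13 in furan 42 of the FFPE 3 week set was at 3.968 CPM against 2.777 to 2.959 CPM in the other furan libraries. Eln in the same library was at 23.81 CPM against 11.52 to 12.87 CPM.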

How the results depend on the processing

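With each library left out, the number of matrix genes called was 1 to 2 in fresh-frozen (4 with all libraries), 1 to 3 in FFPE 18 h and 0 to 0 in FFPE 3 week livers, and 21 to 25 and 8 to 18 between FFPE 18 h or 3 week and fresh-frozen control pieces. The 8 and a 9 came without fresh-frozen controls 06 and 04. In 1 model of all 6 groups the counts were 0, 1 and 8 for the 3 furan comparisons, and all genes called went from 2162 to 138, from 1077 to 225 and from 99 to 2030. DESeq2 gave 5, 2 and 1 (Col3a1), with 1463 and 353 of all genes called in FFPE 18 h and 3 week livers, and 1 for the FFPE 3 week interaction (Lama2). Without a filter on low counts FFPE 18 h livers had 2 calls, and 194 of all genes passed in FFPE 3 week livers. Without the 2 shallowest FFPE 3 week libraries 0 matrix genes and 12 of all genes passed. With the replicate block, the animal as a term, 25 and 11 matrix genes were called between kinds of piece (Col3a1, Lama2, Loxl1 and Acta2 were lost at 3 weeks), and 0 and 0 interactions; no count moved by over 1.5 times. RLE scaling split the FFPE 3 week calls 10 higher to 5 lower, against 9 to 6. Directions turned for changes near 0, none past the threshold: with a library left out, fresh-frozen Tgfb1 spanned -0.311 to 0.0147, Eln -0.0327 to 0.243 and Fn1 -0.0217 to 0.102. FFPE 18 h Fn1 spanned -0.0436 to 0.102, Dcn -0.0258 to 0.0821 and Tgfb1 -0.048 to 0.143, and FFPE 3 week Lamc1 -0.174 to 0.176. Fn1 was at -0.0506 in FFPE 18 h livers with only the animals that have a fresh-frozen library. The cause of these differences was not tested, beyond the fewer samples in each fit. Of the single-gene values 506 kept direction and side of the threshold, 18 lost their call, 10 gained one and 14 turned. The FFPE 3 week libraries are shallow, and low genes such as Mmp13 rest on few counts there.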

Other observations

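Mmp12 and Mmp13 sit in a run of metalloproteinase genes on mouse chromosome 9, which was looked at after the values of both were seen. In the order of the annotation, the 8 neighbours Mmp1b, Mmp3, Mmp1a, Mmp10, Mmp8, Mmp27, Mmp20 and Mmp7 held 0, 33, 0, 0, 32, 206, 2 and 40 counts over all 22 libraries, against 262 for Mmp13 and 1313 for Mmp12. Mmp27 had 66 control and 60 furan counts in fresh-frozen livers. Mmp8, neutrophil collagenase, held 1 control and 6 furan counts in fresh-frozen livers and 0 against 21 in FFPE 3 week livers.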
